A study of Mus musculus with 2 samples.

Results

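Sprouty and Spred proteins and Errfi1 are inducible brakes on signalling from growth factor receptors through RAS to the kinase ERK. The transcripts described are those of Spry1, Spry2, Spry4, Spred1, Spred2, Spred3 and Errfi1, 7 of 18193 genes, taken as every probe set annotated with exactly one of these symbols. There were 23 such probe sets of the 34945 with 1 symbol, and no probe set with several symbols held a member. The 7 genes were chosen with their ratios on these arrays already known, so the ratios below describe the members and are not a test.

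The cells were ATDC5, a mouse chondrogenic line. One group, CHX+Nell-1, was starved of serum, given the protein synthesis inhibitor cycloheximide (CHX) at 10 µg/ml for 30 min and then recombinant human Nell-1, a secreted growth factor, at 100 ng/ml for 30 min more. The other group, CHX+PBS, had the same starvation and CHX and then PBS for 30 min. Each group is 1 array of total RNA, so no value carries an error between cultures and no test was possible. The design asks which transcripts respond to Nell-1 before new protein can be made. Starvation and CHX were shared by both groups, so the ratios compare Nell-1 with PBS only in cells without protein synthesis.

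Sprouty proteins are made in response to fibroblast and epidermal growth factor signals and then dampen the same pathway. They carry a cysteine-rich carboxy-terminal domain, and Sprouty 2 also binds the ubiquitin ligase Cbl and the adaptor Grb2. Spred proteins share that domain and add an EVH1 domain, through which Spred1 brings the RAS inactivator neurofibromin to the membrane. Errfi1, also called Mig-6, belongs to neither family and binds the kinase domain of the EGF receptor. In mice, loss of Spred2 shortens the long bones and loss of Errfi1 damages joint cartilage.

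RefSeq promoter windows of assembly GRCm38.p6 ran from 250 bases before to 50 bases after an annotated start. They were searched for 6 of the 7 members, with 7 windows in all because Errfi1 has a pair of starts. Spry4 was left out of the search, so no motif statement below covers that gene. The windows of Spry1, Spred2 and Errfi1 (its second start) are shown because these genes had lower signals with Nell-1, and that of Spred1 because its brightest probe set was higher. Capitals mark matches on either strand to the motifs searched.
Spry1 (chr3:37639697-37639996, plus strand): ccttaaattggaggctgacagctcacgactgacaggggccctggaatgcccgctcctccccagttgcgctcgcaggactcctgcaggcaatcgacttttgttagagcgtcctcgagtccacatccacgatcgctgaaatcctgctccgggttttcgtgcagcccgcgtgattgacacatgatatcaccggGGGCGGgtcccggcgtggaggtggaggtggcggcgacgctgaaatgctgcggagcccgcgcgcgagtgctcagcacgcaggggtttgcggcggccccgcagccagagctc
Errfi1 (chr4:150854820-150855119, plus strand): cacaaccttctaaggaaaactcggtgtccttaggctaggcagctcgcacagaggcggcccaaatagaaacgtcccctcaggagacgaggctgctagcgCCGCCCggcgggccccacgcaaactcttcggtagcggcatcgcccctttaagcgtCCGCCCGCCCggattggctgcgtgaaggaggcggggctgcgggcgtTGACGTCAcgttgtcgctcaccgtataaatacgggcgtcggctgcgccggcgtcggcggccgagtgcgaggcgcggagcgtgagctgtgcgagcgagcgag
Spred2 (chr11:19924192-19924491, plus strand): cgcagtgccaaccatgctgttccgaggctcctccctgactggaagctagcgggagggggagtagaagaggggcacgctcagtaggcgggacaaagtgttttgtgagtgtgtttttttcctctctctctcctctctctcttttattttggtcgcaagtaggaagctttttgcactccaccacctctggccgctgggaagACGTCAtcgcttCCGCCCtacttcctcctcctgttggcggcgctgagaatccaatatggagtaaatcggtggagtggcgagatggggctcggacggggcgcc
Spred1 (chr2:117120821-117121120, plus strand): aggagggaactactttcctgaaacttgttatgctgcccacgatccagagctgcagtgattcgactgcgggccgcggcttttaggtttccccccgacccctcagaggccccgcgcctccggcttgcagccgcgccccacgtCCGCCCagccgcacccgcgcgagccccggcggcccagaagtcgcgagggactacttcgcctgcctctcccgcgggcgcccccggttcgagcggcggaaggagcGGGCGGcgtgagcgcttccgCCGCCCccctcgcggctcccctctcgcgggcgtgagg

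The motifs searched were GGGCGG (SP1), TGACGT (part of the cyclic AMP response element), CCGGAA (an ETS core), TGACTCA or TGAGTCA (AP-1), GTGGGCG (an EGR core), CACGTG (E-box) and the serum response factor CArG box. GGGCGG was present in 5 of the 7 member windows, each of a different gene, and in 35.7% of 32851 promoter windows of the same length. The member windows with GGGCGG were 55.0% to 72.3% G or C, against a median of 52.7% over all windows. This difference in base content was not allowed for. TGACGT was present in 2 member windows, those of Spred2 and Errfi1 shown above, and in 7.51% of all windows. The Spred2 match began 52 bases before the annotated start. In Errfi1 a pair of overlapping matches on opposite strands began 51 and 49 bases before the start. Among the 7 member windows CCGGAA was found in that of Spry2 alone, and it was in 14.9% of all windows. None of the 7 member windows held the CArG box, AP-1, EGR core or E-box letters, which were in 1.63%, 5.20%, 7.97% and 7.15% of all windows. These are matches of letters and say nothing about binding.

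Taking each gene by its brightest probe set, 4 of the 7 genes (Spry1, Spry4, Spred2 and Errfi1) were lower with Nell-1 by 1.5-fold or more, 1 (Spred3) was higher by as much and 2 (Spry2 and Spred1) were neither. Among all 18193 genes the same measure called 19.0% lower and 13.1% higher. Spred3 had very low signals, and among the 11600 genes whose mean signal reached 64.3, the median over all probe sets, 7.53% were lower and 4.56% higher. The median log2 ratio of the 7 genes was -0.64, against -0.06 for all genes. The 1.5-fold limit was taken from the submitters' design text.

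These calls depend on what the arrays are scaled to. The deposited signals share 1 trimmed mean, while 24 poly-A spike-in probe sets, which read bacterial RNAs added to the samples, all gave less signal on the CHX+Nell-1 array. Their median log2 ratio was -0.49. If that median is set to 0, every ratio moves up by 0.49, none of the 7 genes is 1.5-fold lower, and the median of all probe sets becomes 0.44. Relative to that median, the members' ratios are as before.

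**Figure D1:**
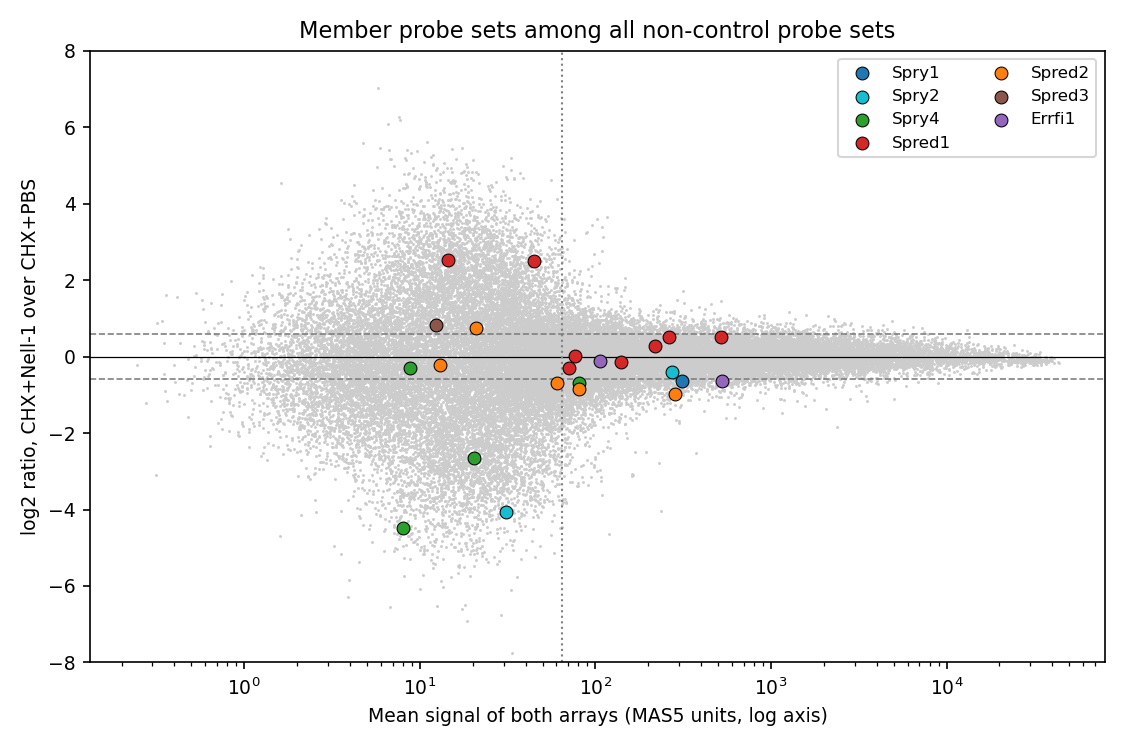
The log2 ratio of CHX+Nell-1 over CHX+PBS (vertical axis) is plotted against the mean MAS5 signal of both arrays (horizontal log axis), with all 45037 non-control probe sets in grey and the 23 member probe sets coloured by gene. Dashed lines mark 1.5-fold and the dotted line the median mean signal of 64.3; the grey cloud is wide left of that line and narrow to its right, where the member ratios lie between -0.99 and 0.52.

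As deposited, all 7 probe sets of Spry1, Spry2 and Spry4 were lower with Nell-1, where 54.4% of all probe sets were below 0. With the poly-A spike-ins set to 0 or with low signals floored, 5 of the 7 were lower. These probe sets are not independent, since 4 of them read Spry4. Also, 4 of the 7, of Spry2 and Spry4, lie below the median signal. Spry3, the remaining Sprouty gene, is not a member and was looked up after the other values were seen. Its 1 probe set read 38.9 with Nell-1 and 26.5 with PBS, 1.46-fold higher, with both signals below the median. Spry1, which restrains RET and FGF receptor signalling, had a signal of 242 with Nell-1, against 378 with PBS, on its only probe set (1415874_at). That is a log2 ratio of -0.64, or 1.56-fold lower. The spread of ratios at this brightness, given as a robust SD over probe sets in the same 1 of 10 equal bins of mean signal, was 0.33, and 4.82% of those probe sets were at least 1.5-fold lower. The robust SD mixes measurement noise with real differences and is not an error between cultures.

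Spry2, the family member best known for binding Cbl, had a signal of 233 with Nell-1, against 311 with PBS, on its brightest probe set (1436584_at). It was 1.33-fold lower and did not reach 1.5-fold, and its log2 ratio of -0.42 was smaller in size than the robust SD of 0.43 at its brightness. Its second probe set (1421656_at) read 3.47 with Nell-1, against 58.6 with PBS. Both signals lie below the median of 64.3, where a plain ratio is unstable. With 17.9, the 25th percentile of the mean signal, added to both signals, the log2 ratio of -4.08 shrank to -1.84.

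Spry4, an inhibitor induced by FGF signals, was close to the median signal. Its brightest probe set (1440867_at) had 61.9 with Nell-1, against 99.4 with PBS, 1.61-fold lower with a log2 ratio of -0.68. The robust SD there was 0.62, and 22.9% of probe sets in that signal bin were at least 1.5-fold lower, so a ratio of this size is common at this brightness. The other 3 probe sets read at most 7.92 with Nell-1 and at most 34.9 with PBS. All were lower with Nell-1, but their log2 ratios ran from -4.47 to -0.29, a range that shows how little such dim signals fix. A pair of them, with ratios of -2.65 and -0.29, was designed from the same GenBank sequence.

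**Figure D2:**
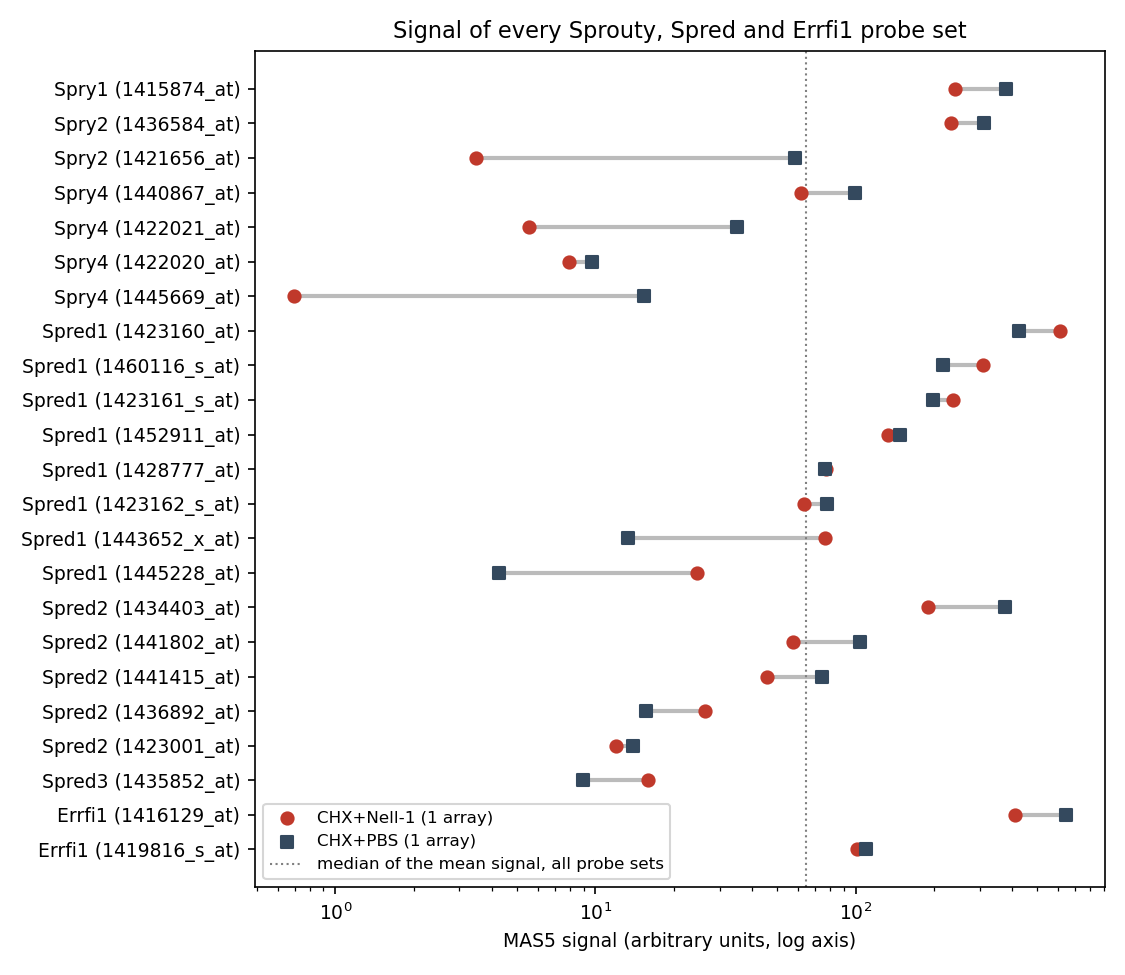
MAS5 signals (horizontal log axis) of all 23 member probe sets, one per line, with the CHX+Nell-1 array as a red circle and the CHX+PBS array as a dark square. With signals as deposited, every Spry1, Spry2 and Spry4 line has the Nell-1 circle to the left, while the brightest Spred1 line (612 and 426) has it to the right.

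The Spred genes did not move together. Spred2, an inhibitor of RAS-ERK signalling that in mice limits FGF-driven growth plate signalling, had a signal of 190 with Nell-1, against 376 with PBS, on its brightest probe set (1434403_at). This was 1.98-fold lower, a log2 ratio of -0.99, the lowest of the 13 member probe sets above the median signal. Of the probe sets in the same signal bin, 0.555% had a ratio as low or lower. The mean signal of 1434403_at, 282.9, lay at the lower edge of that bin, which starts at 281.6. In that bin 4.82% of probe sets were at least 1.5-fold lower, against 11.7% in the bin just below, so the share depends on the edge. The second Spred2 probe set (1441802_at) read 57.6 with Nell-1, against 104 with PBS, 1.81-fold lower. The second value thus lay on the same side, at a brightness where 22.9% of probe sets were 1.5-fold lower.

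The remaining 3 Spred2 probe sets lay below the median signal. One (1441415_at) had 45.9 with Nell-1, against 74.6 with PBS, 1.63-fold lower. Another (1436892_at) had 26.4 with Nell-1, against 15.6 with PBS, a ratio in the other direction. The last (1423001_at), designed from the RefSeq mRNA, had 12.0 with Nell-1, against 14.0 with PBS. Spred2 was therefore lower on 4 of 5 probe sets, 3 of them by 1.5-fold. The mean of the 5 log2 ratios, -0.40, did not reach 1.5-fold.

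Spred1, the neurofibromin partner, was the one member above the median signal whose brightest probe set was higher with Nell-1 as deposited. That probe set (1423160_at) had 612 with Nell-1, against 426 with PBS, a log2 ratio of 0.52 or 1.44-fold. A second (1460116_s_at) gave 310 with Nell-1, against 216 with PBS, also a log2 ratio of 0.52. Neither reached 1.5-fold. The mark _s in an ID means that the probes match more than one transcript, and without the _s, _x or _a types the brightest Spred1 probe set is the same one.

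The dimmer Spred1 probe sets gave smaller ratios or the other sign. The third (1423161_s_at) had 238 with Nell-1, against 198 with PBS. The fourth (1452911_at) had 133 with Nell-1, against 148 with PBS, the fifth (1428777_at) 77.2 with Nell-1, against 76.5 with PBS, and the sixth (1423162_s_at) 63.2 with Nell-1, against 78.0 with PBS. Over these 6 probe sets the log2 ratios ran from -0.30 to 0.52 with a median of 0.14, and 4 of 6 were above 0. They are not independent, since 3 of them (1423160_at, 1423161_s_at and 1423162_s_at) were designed from 1 sequence and gave both the highest and the lowest of the 6 ratios. The other 2 Spred1 probe sets had a mean over both arrays below the median signal (76.2 and 24.5 with Nell-1, against 13.4 and 4.25 with PBS). Their log2 ratios of 2.51 and 2.53 were the highest of all member probe sets, at a brightness where such ratios are unstable. The one at 2.51 (1443652_x_at) was designed from the same sequence as 1460116_s_at, which gave 0.52.

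Spred3, whose product lacks a functional KIT-binding domain, had low signals. Its single probe set (1435852_at) read 15.9 with Nell-1, against 8.94 with PBS, a log2 ratio of 0.83. With both signals below 17.9, raising low signals to that floor leaves a ratio of 0, and 33.8% of probe sets in that signal bin were at least 1.5-fold higher. Whether Spred3 was expressed was not determined, since detection calls were not used here.

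Errfi1, the EGF receptor inhibitor, had a signal of 411 with Nell-1, against 646 with PBS, on its brighter probe set (1416129_at). It was 1.57-fold lower, a log2 ratio of -0.65, and 3.58% of probe sets in the same signal bin were as low or lower. The second (1419816_s_at) had 102 with Nell-1, against 110 with PBS, a log2 ratio of -0.12. The probe sets therefore shared the sign but not the size, and the mean of their log2 ratios, -0.38, did not reach 1.5-fold.

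Over all probe sets, 15 of 23 were lower with Nell-1 and 8 were higher as deposited, against 54.4% of all probe sets below 0, and 9 were lower with the poly-A spike-ins set to 0. Above the median signal lay 13, of which 5 were at least 1.5-fold lower and none higher, where 8.48% and 5.97% of the 22519 probe sets at this brightness were lower and higher. Those shares were 7.20% and 7.46% with the median ratio set to 0, 7.24% and 6.99% with a loess trend removed, 7.13% and 7.11% after quantile normalization, and 2.22% and 36.2% with the poly-A spike-ins set to 0. The 7 probe sets above the median that were not the brightest of their gene had a median log2 ratio of -0.12, and 1 of them, of Spred2, was 1.5-fold lower. Of the 10 below the median, 4 were lower and 4 higher by 1.5-fold, in signal bins where 53.8% to 77.9% of probe sets pass that limit in one direction or the other. Fewer cells carrying a transcript and less of it per cell cannot be told apart in RNA from whole cultures.

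**Figure D3:**
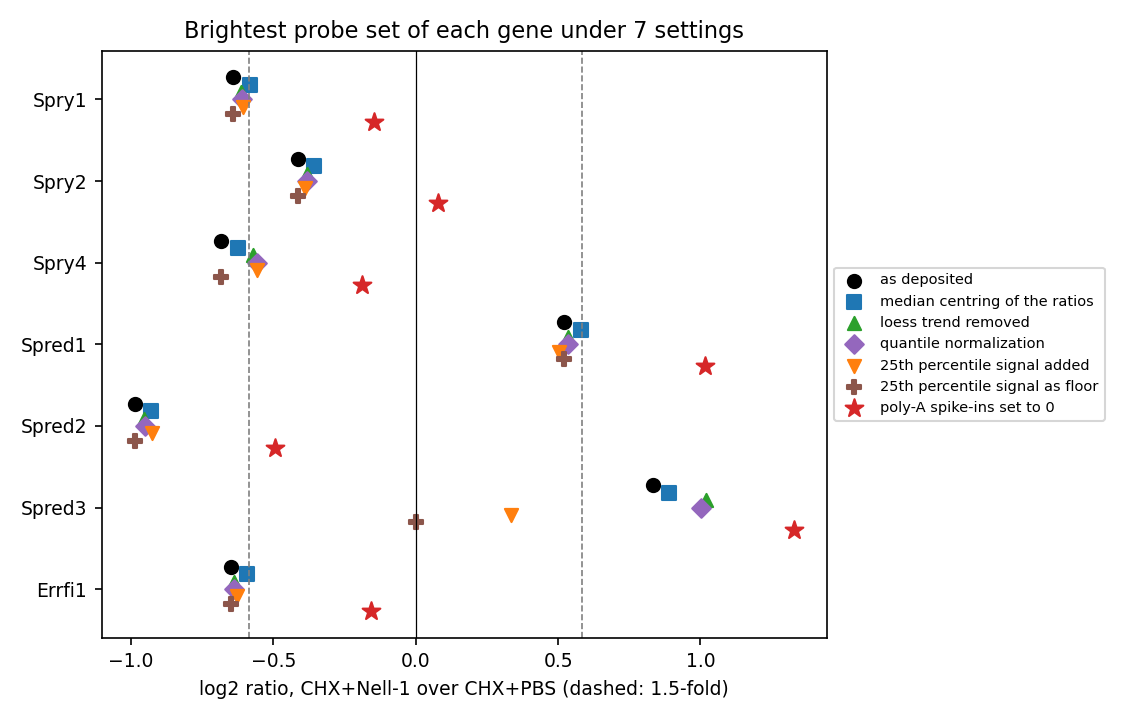
The log2 ratio of CHX+Nell-1 over CHX+PBS (horizontal axis) is shown for the brightest probe set of each gene as deposited and under 6 other scalings or treatments of low signal, each a different marker, with dashed lines at 1.5-fold. The markers of Spry1, Spry2, Spry4, Spred2 and Errfi1 lie left of 0, except Spry2 at 0.08 with the poly-A spike-ins set to 0; the red stars of that setting lie 0.49 to the right of the deposited values.

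Rescaling alone moved some members across the limit. With the median ratio set to 0, Spry1 was at -0.58 and no longer 1.5-fold lower. Spry4 was at -0.57 with the loess trend removed and at -0.56 after quantile normalization or with 17.9 added. Errfi1 ran from -0.65 to -0.59 and Spred2 from -0.99 to -0.93 over these settings, both still past 1.5-fold. With the poly-A spike-ins set to 0, Spred2 was at -0.49, Errfi1 at -0.16, Spry1 at -0.15 and Spry4 at -0.19, while Spred1 was at 1.02, 2.02-fold higher. The distance between Spred1 and Spred2 is the same under any single factor per array.

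The spike-in difference was not uniform along the RNAs. The 8 poly-A probe sets at the 5' position had a median log2 ratio of -0.70, the 8 in the middle -0.49 and the 8 at the 3' position -0.43. The 18 hybridisation spike-ins, added after labelling, had a median of -0.18. The 3' to 5' signal ratio of the cells' own transcripts was 1.28 with Nell-1 and 1.32 with PBS for Actb, and 0.858 with Nell-1 and 0.848 with PBS for Gapdh. Of 10 reference genes, none reached 1.5-fold, with log2 ratios from -0.24 to 0.58 and a median of -0.02. The part of the spike-in difference in the member ratios was not tested.

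Most of the pathway that these brakes act on differed little. Of 72 listed RAS-ERK genes 64 had a probe set with 1 symbol, and the other 8 were not analysed here. By brightest probe set, 6 of the 64 were at least 1.5-fold lower, 1 was higher and 57 were neither, with a median log2 ratio of -0.14, against 19.0% lower, 13.1% higher and a median of -0.06 over all genes. Above the median signal the counts were 4 lower and 1 higher of 61, against 7.53% and 4.56%.

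On their brightest probe sets and as deposited, no receptor, adaptor or RAS gene reached 1.5-fold. The 9 receptors had log2 ratios from -0.55 for Fgfr1, an FGF receptor, to 0.22 for Fgfr2. The 7 adaptors and exchange factors had a median of 0.07, and the 7 RAS proteins and their GTPase activators a median of -0.11. A dimmer probe set above the median signal was 1.5-fold lower for Fgfr1, Gab1 and Crk and 1.5-fold higher for Egfr. With the poly-A spike-ins set to 0, 2 of 9 receptors, 3 of 7 adaptors and 2 of 7 RAS genes were 1.5-fold higher. Of all probe sets above the median signal, 36.2% were 1.5-fold higher in that setting. Nf1, which encodes the neurofibromin that Spred1 recruits, had 202 with Nell-1, against 190 with PBS. In the kinase cascade 1 of 7 genes was lower, the scaffold Ksr1, with 180 with Nell-1, against 324 with PBS, 1.80-fold lower on its single probe set above the median, and Map2k2, a kinase that activates ERK and was within 1.5-fold on its brightest probe set, had another that was lower.

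No other brake or partner reached 1.5-fold on its brightest probe set, although Rasal2, Lrig1 and Ppp2r1a each had another probe set above the median signal that was 1.5-fold lower. As deposited, of 7 other inhibitors 6 had log2 ratios below 0, where 55.3% of all genes did, with a median of -0.24, and the lowest was Dab2ip, a RAS GTPase activator, at -0.57. All 8 reported Sprouty and Spred partners were below 0, from -0.28 for Tesk1, a kinase that binds Sprouty proteins, to -0.04 for Cav1, which encodes caveolin 1. With the median ratio set to 0, 6 of the 8 partners were below 0, and with the poly-A spike-ins set to 0 none was, with 1 of the 7 inhibitors. Cbl, among the inhibitors, was at 0.01 as deposited.

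Downstream, of 11 transcriptional outputs of ERK 4 were at least 1.5-fold lower and none higher as deposited, against 19.0% of all genes lower. Above the median signal 3 of 9 were lower, against 7.53%. The median was -0.19, and 10 of 11 were below 0, against 55.3% of all genes. With the median ratio set to 0, the loess trend removed or quantile normalization 3 of 11 were lower. With the poly-A spike-ins set to 0 there was 1 lower and 1 higher. In that setting 2.22% and 36.2% of all probe sets above the median signal were lower and higher. Egr1, an immediate-early transcription factor, had 506 with Nell-1, against 1293 with PBS, 2.55-fold lower. Fos, an AP-1 subunit, had 168 with Nell-1, against 343 with PBS, 2.04-fold lower. Dusp6, the phosphatase that inactivates ERK, had 489 with Nell-1, against 755 with PBS, 1.54-fold lower. With the median ratio set to 0, Dusp6 no longer reached 1.5-fold, which also lowers the count above the median signal. The fourth, Dusp4, lay below the median signal. Among 8 ETS and SRF factors, Elk4, a partner of serum response factor, had 1313 with Nell-1, against 858 with PBS, 1.53-fold higher. The other Elk4 probe set above the median was 1.5-fold lower. Ets1, at 0.33 on its brightest probe set, had another above the median that was 1.5-fold higher. Etv4, at 7.85 with Nell-1 and 29.1 with PBS, was the 1 lower gene and is below the median signal.

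**Figure D4:**
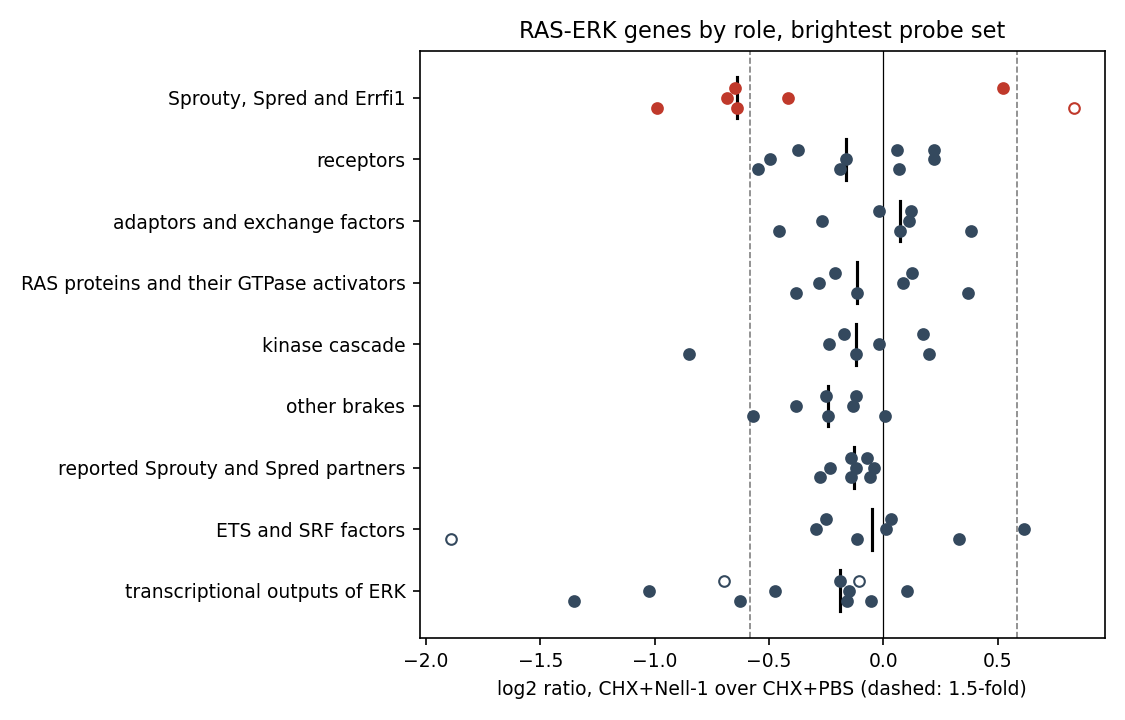
Each point is a gene's log2 ratio of CHX+Nell-1 over CHX+PBS on its brightest probe set, in rows by role, with the 7 Sprouty, Spred and Errfi1 genes in red; black bars are row medians, dashed lines mark 1.5-fold and open points are genes below the median signal. The red row has its median at -0.64, and the medians of the other rows lie between -0.24 and 0.07.

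As a check on the cells, 7 of 10 chondrogenic markers were above the median signal, among them Sox9 (2577 with Nell-1 and 3375 with PBS) and Col2a1 (1206 with Nell-1 and 909 with PBS). Of these 7, Acan (293 with Nell-1 and 176 with PBS) and Sox6 (338 with Nell-1 and 208 with PBS) were 1.67-fold and 1.62-fold higher, and their part in the member ratios was not tested. Comp, Hapln1 and Matn3 were below it, as were all 3 hypertrophic markers. Of 17 measured markers of other cell types 6 were above the median signal, among them Epcam with 370 with Nell-1 and 466 with PBS and Krt5 with 61.0 with Nell-1 and 102 with PBS, 1.67-fold lower. Their summed signal was 1004 with Nell-1 and 1302 with PBS, and their part in the member ratios was not tested. Array medians were 62.8 with Nell-1 and 69.8 with PBS.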

How the data were processed

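Total RNA from ATDC5 cells was measured on 2 one-colour Affymetrix mouse expression arrays, 1 per group. The deposited values are intensities, linear MAS5 signals per probe set; Expression Console and MAS5 are named per the submitters' processing notes, with versions not given in the sources used here. Both arrays had a 2% trimmed mean of 500.0. Of 45101 probe sets 64 were controls and were kept apart.

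Each probe set was named from the platform annotation. The measure was the log2 ratio of CHX+Nell-1 over CHX+PBS. A gene was represented by its brightest probe set over both arrays, and signals of different probe sets were not compared. With 1 array per group no test was run, and the number of arrays limits the precision. The members and gene lists were chosen with earlier results of these data known. Every member probe set was reported. Of the RAS-ERK lists, genes above the median signal and past 1.5-fold were named, up to 4 per list. The others named were picked after their values were seen. They are Fgfr1, Fgfr2, Nf1, Dab2ip, Tesk1, Cav1, Cbl, Dusp4, Etv4, Ets1, Egfr, Gab1, Crk, Map2k2, Rasal2, Lrig1, Ppp2r1a, the reference and the marker genes. No gene was named for a like pattern, since 2 arrays give 1 ratio each. Alternatives were 4 rescalings, a constant or floor for low signals, other signal filters, a 2-fold limit, probe set types and means over probe sets. Python 3.11.15, pandas 2.3.3 and statsmodels 0.14.6 (loess, span 0.3) were used, and the code was tested on simulated data.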

Additional observations from a re-analysis of the deposited data

How the results depend on the processing

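As deposited, 5 of the 13 brighter member probe sets (mean signal at or above the median) and 4 of 7 member genes were at least 1.5-fold lower, and 0 and 1 were higher. Median centring, loess and quantile normalization left 4 probe sets and 3 genes lower, with the median of the member genes between -0.58 and -0.56. With the poly-A spike-ins set to 0, no probe set and no gene was lower (0 and 0), and 3 probe sets and 2 genes were higher. The median was then -0.15, and 2 pathway genes were lower and 12 higher. Of all probe sets above the median signal, 2.22% were lower and 36.2% higher in that setting. These changes follow from adding 0.49 to every ratio. Adding or flooring at 17.9, or averaging over probe sets above the median signal, left 0 member genes higher, because Spred3 is dim or left out. That average also left 0 pathway genes higher of 61. At 2-fold no member probe set or gene passed in either direction (0), and 3 pathway genes were lower and 0 higher. Without a signal filter 9 of 23 member probe sets were lower and 4 higher, where 23.1% and 17.5% of all probe sets were. At a mean signal of at least 200 there were 3 lower of 7. The share of all probe sets past the limit at that filter is not given here. Averaging over all probe sets of a gene gave 3 member genes lower (Spry1, Spry2 and Spry4) and 2 higher (Spred1 and Spred3). The Spry2 mean of -2.25 and the Spry4 mean of -2.03 include probe sets below the median signal. Of the pathway genes 10 were lower and 3 higher by that average. Unmarked probe sets alone gave 2 pathway genes higher of 57. No called member probe set changed sign under the 6 rescalings and low-signal settings, although a floor put Spred3 and 1 Spry4 probe set at 0. A called ratio lies farther from 0 than the poly-A shift of 0.49, so that setting could not change its sign. Among those not called some did change, and the member probe sets below 0 went from 15 to 9 of 23 in that setting. No paired analysis was possible because each group has 1 array, which also leaves no replicate to omit. The limit on precision is the single array per group, and below the median signal the ratios are too unstable to rank.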
